A study of Bos taurus with 16 samples.

Results

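Cell cycle and proliferation genes were compared between endometrial and blood CD14+ cells of pregnant cows. The rule takes genes whose symbol, in the array's gene name or description, begins with MCM, CCNA, CCNB, CCND, CCNE, CDC, CDK, AURK, BUB, CENP or PLK, together with PCNA, TOP2A, STMN1 and OIP5, and leaves out the CDC42 genes. It took 107 of 21475 probes, which represented 101 of 20602 gene names. TOP2A, CDC27, CDC25A and CDK6 bear their symbols only in another column and are not among the 101. Each gene was represented by its brightest probe. No member differed between the tissues at the adjusted p, and the ratios of most members differed in sign between animals. The sign was the same in all 4 animals in 6 members that were higher (6.32%, beside 10.2% of all probes tested). It was so in 13 that were lower (13.7%, beside 14.7%). Single genes were also read at an unadjusted p of up to 0.05 and a difference over 2-fold. The DNA clamp PCNA, the inhibitors CDKN1A and CDKN1B, the kinases PLK3 and CDC2L5, CDK5R1 and a probe for stathmin were lower in the endometrium. CDK10 was higher. Over 16 other fits, the stathmin probe and CDK5R1 passed this threshold in 16, and CDKN1A and PLK3 in 13. CDKN1B passed it in 11, CDK10 in 9, CDC2L5 in 7 and PCNA in 6. These fits draw on the same 4 animals and are not independent, and several of them share the same ratios.

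A cell divides by copying its DNA and then separating the copies. MCM proteins are loaded onto replication origins with the help of CDC6 and form the helicase that unwinds DNA, and PCNA is the ring that holds polymerases on it. Cyclins switch on the cyclin-dependent kinases (CDK), and inhibitors such as CDKN1A and CDKN1B hold them back. Aurora, Polo-like and BUB kinases and the CENP proteins of the centromere then act in mitosis. Blood monocytes hardly divide, whereas tissue macrophages of several organs can renew themselves locally.

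The samples were CD14+ cells sorted by flow cytometry from dispersed stromal endometrium and from mononuclear cells of peripheral blood of 4 cows, collected at an abattoir at days 164, 239, 242 and 248 of pregnancy. No animal was treated, and days and animals cannot be told apart. RNA was amplified and labeled, and each array held both tissues of 1 animal in different dyes. Every animal was on 2 arrays, with exchanged dyes in 3 of the 4 animals. Levels are normalized intensities on the log2 scale, the mean of the 2 arrays, and a ratio is the log2 level in endometrium minus that in blood of the same animal. A ratio of 1 is thus a 2-fold difference. The precision is limited by the number of animals, and a 2-sided exact permutation test over 4 animals cannot give a p under 0.125. All p-values are therefore from limma, which pools the spread over probes.

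The libraries differed in cell type markers. CD14, the antigen used for sorting, had log2 levels of 14.24, 6.30, 7.63 and 6.69 in the blood cells of animals 1 to 4 and of 12.17, 6.41, 8.14 and 6.82 in the endometrial cells. In animals 2, 3 and 4 the CD14 RNA signal was thus far lower in both tissues than in animal 1, although all cells are labeled CD14+. Cells were sorted by CD14 protein, and the paper reports their purity by flow cytometry, which an RNA signal does not measure. The summed intensity of the 9 monocyte and macrophage markers on the array was 76446 in the blood of animal 1 and 2827 to 8877 in the other animals, and 8364 to 84436 in endometrium. In no channel was LYZ well above background. Natural killer and T cell markers, 18 on the array, summed to 4375 in the blood of animal 1, to 38760 to 79685 in the blood of animals 2, 3 and 4, and to 39998 to 191338 in endometrium. B cell markers, 10 on the array, summed to 8872 to 71130 in blood and 6016 to 25010 in endometrium, and 9 of the 10 had a mean ratio below 0. All 15 epithelial markers had a mean ratio above 0, and their sums were 1448 to 4297 in blood and 4382 to 59215 in endometrium. Of 13 trophoblast markers tested, 11 had a mean ratio above 0, with sums of 2143 to 3941 in blood and 15067 to 48863 in endometrium over the 16 on the array. PAG4, PAG7, CSH1, PRP1 and PRP6 among them were called at the adjusted p, with ratios of 3.17 to 4.36. In no channel were GCM1 and CDX2 well above background. Granulocyte markers, 8 on the array, summed to 68715 in the blood of animal 1 and to 1173 to 2230 in that of the others, and to 728 to 7093 in endometrium. Stroma and endothelium markers, 14 on the array, summed to 32759 in the blood of animal 1, to 3487 to 6132 in that of the others and to 3061 to 78769 in endometrium. The part of these other cells in the ratios of the members was not tested, and in such bulk samples fewer cells of a type cannot be told apart from less RNA per cell.

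The probes are oligonucleotides of 60 bases. Parts of 30 bases are printed here, 5′ to 3′, for the genes on which the results turn. The first 8 lines give the first 30 bases of probes that were lower or higher in the endometrium at an unadjusted p, or in every animal, with both probes of CCNE2.
STMN1: agatttcagttgtcccaaaactggtctaca
PCNA: ttttttagcctagggagccttgtacaggag
CDKN1A: ttcaaagccccacccacagtgctgagtata
CDKN1B: gtcacaagagaaatatgtgacttgcttttg
CDK10: cccttctctgaggcccatggggaatggggg
CENPA: taacgatgcatcagccaactgaattcaaac
CCNE2, brighter probe: acacttgacctaaacttctattttcttaag
CCNE2, other probe: actgcctgaaatattccattagtatcctta
CDC14B, bases 31 to 60: agcCATCAGGACCTTTGACAGATAGCTGCT
CDC14C, bases 1 to 30: CATCAGGACCTTTGACAGATAGCTGCTagt
The capitals in the CDC14B and CDC14C probes mark 27 bases that both share. RefSeq (assembly ARS-UCD2.0) gives both probes the gene CDC14B, so these members are 1 gene read by overlapping probes. The STMN1 probe is assigned by its gene identifier to a locus that RefSeq lists as a pseudogene, while the stathmin gene is another entry. Its values may stand for either and are uncertain.

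Testing required a signal well above background in 4 or more of the 8 channels of either tissue, and 95 of the 101 members passed. CDCA8, CDCP2, CDK5R2, CDKL3, CENPN and MCM8 did not, and in none of the 16 channels was CDCP2 well above background. With the threshold set at an adjusted p of 0.05 and a difference over 2-fold, none of the 95 members was called by limma. Over all 16653 probes tested, 11 were called (0.0661%), all of them higher in endometrium, and 0 (0%) were lower. The lowest adjusted p of a member was 0.262. With an unadjusted p of up to 0.05 and again a difference over 2-fold, 7 of the 95 members (7.37%) were lower in endometrium, beside 5.11% of all probes, and 1 (1.05%) was higher, beside 5.27%. Those lower were STMN1, PLK3, CDK5R1, CDKN1A, PCNA, CDKN1B and CDC2L5, and the one higher was CDK10. They are named below with their values. Without animal 4, 9 members were higher and 8 lower by this threshold, and without animal 3, 1 was higher and 2 lower. Without animal 1, none was higher and 6 were lower. The shares of all probes past this threshold were not counted in these fits, so these counts are no result about the members.

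The mean ratios of the members lay around 0. Their median was -0.03, beside -0.02 over all probes tested, and 47 of the 95 (49.5%) were above 0, beside 47.4%. A mean difference of more than 2-fold in either direction was found in 13 members (13.7%), beside 15.8% of all probes. Ratios had the same sign in all 4 animals in 6 members that were higher (6.32%, beside 10.2%) and in 13 that were lower (13.7%, beside 14.7%). The levels of the tissues did not overlap in CCNA1, which was higher in endometrium (1.05%, beside 2.41%), and in CDKN1A, OIP5 and PLK3, which were lower (3.16%, beside 3.03%). Each of these shares was read against the same share of all probes, and the members lay near or below it except for those lower at the unadjusted p.

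**Figure D1:**
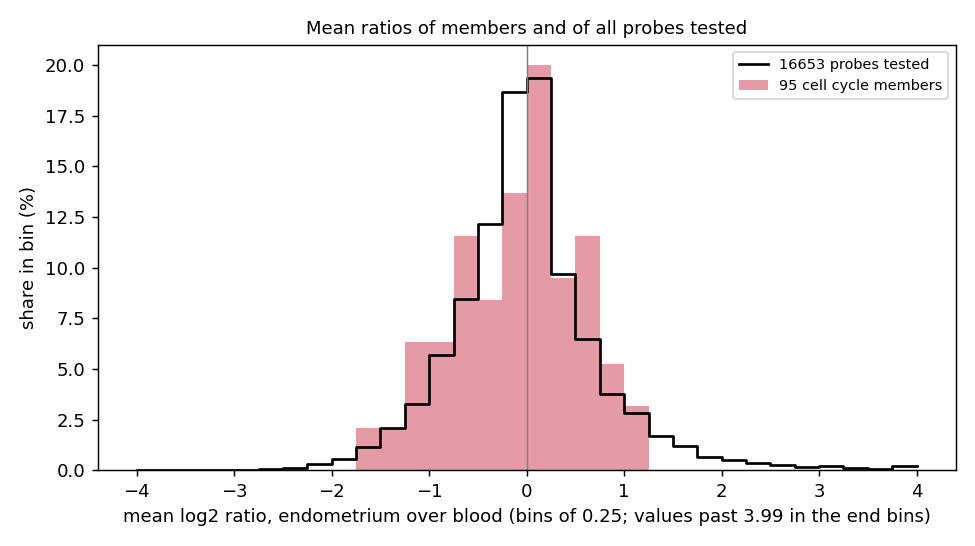
Share of the 95 members tested (bars) and of the 16653 probes tested (line) in bins of the mean log2 ratio of endometrium over blood in 4 animals. The bars of the members follow the line, with medians of -0.03 and -0.02, and the far right tail of all probes holds no member, since the highest member is CDK10 at 1.09.

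Proteins of replication licensing and DNA synthesis did not move together. Of 12 such genes 11 were tested, 5 had a mean ratio above 0 and 6 below, and only PCNA passed the unadjusted threshold. PCNA had log2 levels of 9.22, 11.04, 10.44 and 10.28 in the blood cells of animals 1 to 4 and of 7.66, 9.73, 8.26 and 10.60 in the endometrial cells. It was lower in the endometrium of animals 1, 2 and 3 and 0.32 higher in that of animal 4, and the ranges of both tissues overlapped. Its mean ratio was -1.18 (SE 0.44, n = 4), or 2.27-fold lower, with an unadjusted limma p of 0.0408 and an adjusted p of 0.309. PCNA was not past the threshold in the authors' table, in the analysis of variance of the methods or without animal 1, 2 or 3, among other fits. MCM6, a subunit of the helicase, had levels of 7.98, 10.38, 11.21 and 10.95 in blood and 7.96, 9.28, 8.36 and 10.54 in endometrium. The difference was small in animals 1 and 4 and large in animal 3, with a ratio of -2.85, and the mean ratio was -1.09 (SE 0.51, limma's adjusted p = 0.370). The other helicase subunits had mean ratios of -0.61 for MCM3, -0.07 for MCM2, -0.06 for MCM7, 0.17 for MCM5 and 0.57 for MCM4. MCM3 had a ratio of -2.22 in animal 2 and lay within 0.32 of blood in the others. MCM7 and CDC45L, whose product activates the helicase, were both higher in the endometrium of animals 1 and 2 and lower in that of animals 3 and 4. MCM10, which helps to start replication, differed most between animals in this group, with ratios of 0.68, 0.88 and -1.30 in animals 1 to 3 and of more than 3 in animal 4. CDC6 was 1.82 higher in the endometrium of animal 3, and lower in that of animals 2 and 4. CDC7, the kinase that triggers licensed origins, was higher by 2.00 in animal 1 and had a mean ratio of 0.36.

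Cyclins differed both among themselves and among animals. Of the 10 cyclins, all tested, 5 had a mean ratio above 0 and 5 below, and none passed the unadjusted threshold. The E cyclins, which drive entry into DNA replication with CDK2, were both lower in the endometrium of every animal. CCNE2 had levels of 7.10, 8.58, 8.23 and 8.49 in blood and 6.74, 7.33, 7.31 and 7.51 in endometrium. Blood was higher in each animal, by least in animal 1. The mean ratio was -0.88 (SE 0.24), with limma's adjusted p at 0.262 and a fold of 1.84, under the threshold. CCNE2's other probe had ratios of 0.12, -1.03, -1.23 and -1.07 and a mean of -0.80. CCNE1 had ratios of -0.27, -0.43, -3.12 and -1.02, and its endometrial signal was well above background in 4 of 8 channels. Its mean of -1.21 (SE 0.53) had an adjusted p of 0.353 by limma and rested largely on animal 3.

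The D cyclins respond to growth signals and bind CDK4 and CDK6. CCND1 had levels of 9.02, 11.36, 10.66 and 11.15 in blood and of 12.80, 9.81, 10.53 and 11.02 in endometrium. Animal 1 stood alone, with the lowest blood level and the highest endometrial level, a ratio of 3.78, while the ratios of the others were -1.55, -0.14 and -0.13. CCND2 had blood levels of 8.62 in animal 1 and of 12.17, 12.31 and 12.52 in animals 2, 3 and 4, and its endometrial levels were 11.70, 12.77, 11.55 and 12.19. Again the blood cells of animal 1 stood apart, and without that animal the mean ratio went from 0.65 to -0.16. The blood of animal 1 was also the library with the highest CD14 level and the lowest sum of natural killer and T cell markers; their part in these levels was not tested. CCND3 ran the other way, with ratios of -1.63, -1.31, -0.20 and 0.47.

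The mitotic cyclins had low signals except for CCNA2, with mean levels of 7.96 in blood and 7.33 in endometrium. CCNB1, which brings cells into mitosis with CDC2, had levels of 6.13, 6.94, 6.22 and 6.47 in blood and of 6.90, 8.11, 6.23 and 7.05 in endometrium. It was higher in the endometrium of every animal, by 0.02 in animal 3 and by 1.17 in animal 2, and the mean ratio was 0.64 (SE 0.27, limma's adjusted p = 0.342). CCNB1 was well above background in 5 of 8 blood and 6 of 8 endometrial channels. In the authors' table its ratio in animal 3 was -0.087. CCNA1, a cyclin known mainly from the germ line, was not well above background in any of the 8 blood channels, with levels of 6.02 to 6.09, and was so in all 8 endometrial channels, with levels of 6.26, 6.57, 7.15 and 6.33. It was at least 1.37-fold higher in endometrium, taken against the lowest signal well above background in each array, and its adjusted p was 0.393 by limma. CCNA2 and CCNB2, the cyclins of dividing cells, had mean ratios of -0.62 and 0.04, each with animals on both sides of 0.

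Kinases that cyclins activate, and the CDC25 phosphatases that release them, gave 4 mean ratios above 0 and 3 below among the 7 members. CDC2, now named CDK1, the main kinase of mitosis, had ratios of 0.77, 0.22, 0.43 and -0.51 and a mean of 0.23. CDK4 was higher in the endometrium of animals 1, 2 and 4, by 0.80, 0.90 and 0.67, and its ratio was -0.55 in animal 3. CDK2 had a ratio of 0.82 in animal 3 and lower levels in the endometrium of the others, down to a ratio of -2.09 in animal 4. CDK3 showed the widest spread of these, from 2.96 in animal 3 to -3.12 in animal 4. CDC25B was lower in the endometrium of 3 of 4 animals, with a mean ratio of -0.78 (SE 0.38). CDC25C was not well above background in any blood channel and so in 6 of the 8 endometrial channels, where it was at least 1.17-fold higher.

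Inhibitors of these kinases included the brightest difference among members. CDKN1A, which p53 and other stress signals induce and which blocks several cyclin-dependent kinases, had levels of 14.99, 14.98, 15.43 and 14.50 in blood and of 12.90, 13.66, 13.35 and 14.40 in endometrium. Every blood level lay above every endometrial level, though in animal 4 the tissues differed by only 0.11. The mean ratio was -1.40 (SE 0.40, n = 4), a 2.64-fold lower level, with an unadjusted p of 0.0150 and an adjusted p of 0.262 by limma. CDKN1B, an inhibitor typical of resting cells, had levels of 6.61, 8.45, 7.77 and 8.69 in blood and of 6.43, 7.37, 6.01 and 7.39 in endometrium. Blood was higher in each animal, by little in animal 1. The endometrial signal was well above background in 6 of 8 channels, and its lowest level, in animal 3, gave the largest ratio, -1.76. The mean ratio was -1.08 (SE 0.32), with limma's unadjusted p at 0.0165 and its adjusted p at 0.266. CDKN2C, an inhibitor of CDK4 and CDK6, had ratios of 1.33, 2.53, 1.08 and -0.67, a mean of 1.07 and an adjusted p of 0.393 by limma. CDKN3, a phosphatase that acts on CDK2, was higher in the endometrium of animals 1 and 2 and lower in that of animals 3 and 4. Of the 7 inhibitors and partners, 5 had a mean ratio below 0, with a median of -0.52.

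**Figure D2:**
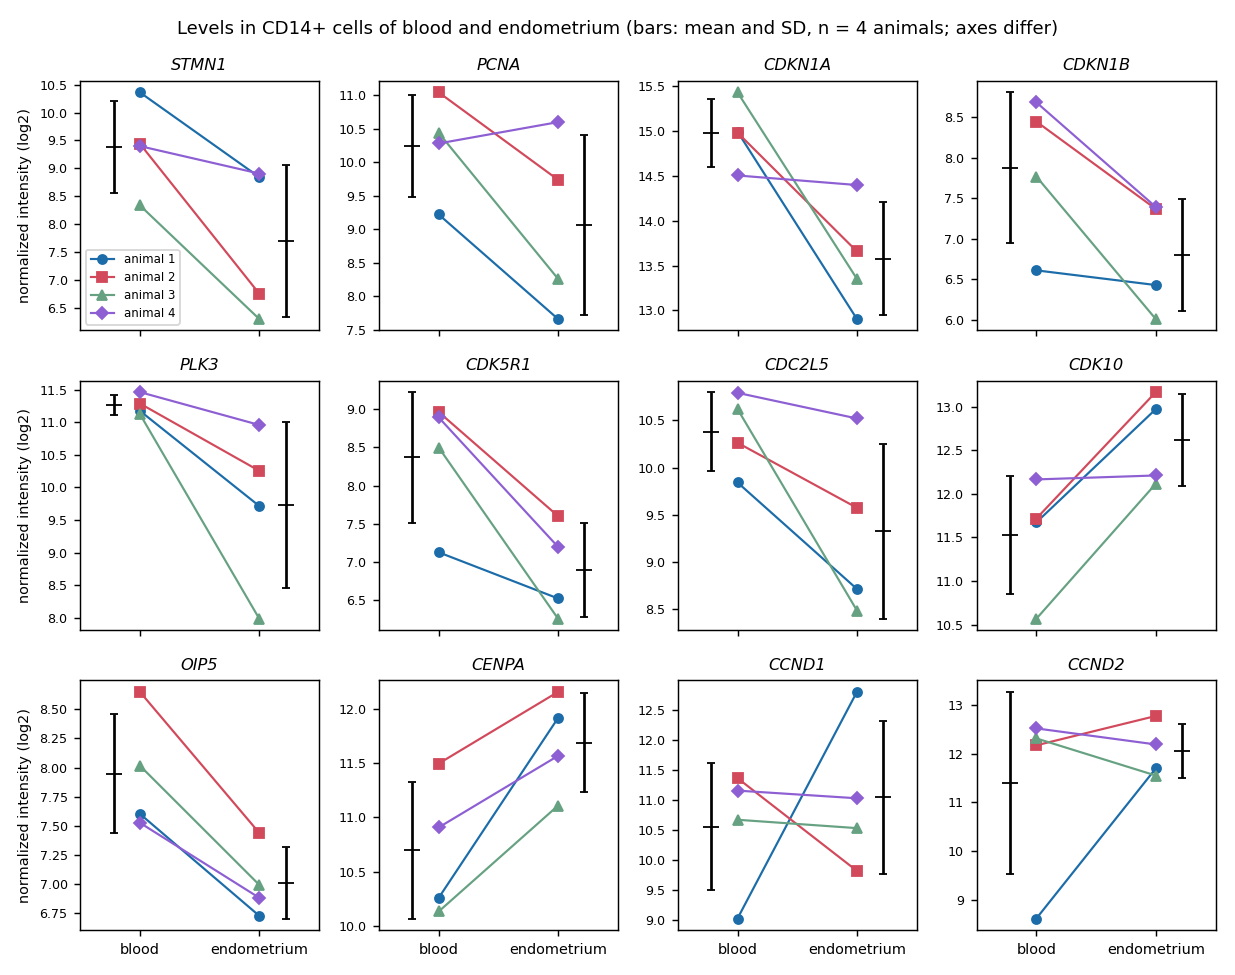
Normalized intensity (log2) of 12 members in the blood and endometrial CD14+ cells of each animal, joined by lines, with the mean and SD over 4 animals as bars beside them and a separate axis for each gene. The lines of STMN1, CDKN1A, CDKN1B, PLK3, CDK5R1, CDC2L5 and OIP5 go down in all 4 animals and those of CDK10 and CENPA go up, while PCNA goes up in animal 4, and CCND1 and CCND2 differ mainly in animal 1.

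Mitotic kinases, checkpoint proteins and genes of mitotic exit had mean ratios on both sides of 0. All 19 were tested, 8 had a mean ratio above 0 and 11 below, and their median was -0.04. PLK3, a Polo-like kinase that responds to stress and DNA damage rather than driving mitosis, was the only one past the unadjusted threshold. Its levels were 11.18, 11.29, 11.13 and 11.46 in blood and 9.71, 10.25, 7.99 and 10.96 in endometrium. The blood levels were nearly equal and all above the endometrial ones, among which animal 3 was lowest. The mean ratio was -1.53 (SE 0.47, n = 4), or 2.90-fold lower, with an unadjusted p of 0.0194 and an adjusted p of 0.272 by limma. PLK1 and PLK4, which act on spindle poles and centrioles, had mean ratios of -0.56 each, and PLK2 had -0.04. AURKA, AURKB and AURKC had mean ratios of 0.07, 0.30 and -0.03, all with dim signals, well above background in 3 to 7 of the 8 channels of a tissue. Of the checkpoint proteins that hold back the separation of chromosomes, BUB1B had ratios of 0.64, 1.54, -0.22 and 1.27 and a mean of 0.81 (SE 0.35, limma's adjusted p = 0.352). BUB1 and BUB3 had means of -0.19 and -0.41, and CDC20, which starts the last step of mitosis, had -0.04. CDC14A, a phosphatase of mitotic exit, was higher in the endometrium of animals 2 and 3 by 1.41 and 2.00. The overlapping CDC14B and CDC14C probes gave, in the order of the animals, -0.51, -1.57, 0.38 and 0.22 for CDC14B and -0.54, -1.44, 0.43 and 0.18 for CDC14C. The sign was the same for both probes in each animal, and negative in animals 1 and 2.

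Genes of the centromere, the spindle and chromosome structure included members in both directions. Of 19 genes 17 were tested, with 10 mean ratios above 0 and 7 below. CENPA, the histone that marks the centromere, had levels of 10.26, 11.50, 10.13 and 10.91 in blood and of 11.92, 12.16, 11.11 and 11.57 in endometrium. It was higher in the endometrium of each animal, by 0.66 or more, although the ranges of the tissues overlapped. With a mean ratio of 0.99 (SE 0.26, n = 4), or 1.99-fold, it lay just under the fold threshold, and its adjusted p was 0.262 by limma. OIP5, which helps to place CENPA at the centromere, had the opposite sign. Its levels were 7.60, 8.65, 8.02 and 7.53 in blood and 6.72, 7.44, 6.99 and 6.88 in endometrium, so that all blood levels exceeded all endometrial levels. The mean ratio was -0.94 (SE 0.22), and its SD of 0.24 over the animals was the smallest among the genes named here with a mean difference near 2-fold. The adjusted p was 0.262 by limma.

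The probe for STMN1, which encodes a protein that destabilizes microtubules, had the largest mean difference of all members. Its levels were 10.36, 9.44, 8.33 and 9.40 in blood and 8.84, 6.75, 6.29 and 8.90 in endometrium. Blood was higher in each animal, with ratios of -1.52, -2.69, -2.04 and -0.49, but the ranges overlapped, since the endometrial levels of animals 1 and 4 exceeded the blood level of animal 3. The mean ratio was -1.69 (SE 0.40, n = 4), a 3.22-fold lower level, with an unadjusted p of 0.00679 and an adjusted p of 0.262 by limma. It stayed past the unadjusted threshold in all 16 other fits, which draw on the same animals and are not independent. As given above, the locus of this probe is uncertain. Of the other centromere proteins, CENPM was lower in the endometrium of every animal with a mean of -0.83 (SE 0.35), and CENPF, a mark of cells about to divide, was near background with a mean of 0.07. CENPC1 had ratios of 1.51, 1.88, 0.31 and -0.14, and CENPQ and CENPI had ratios of -2.55 and -2.07 in animal 3. CENPP had a mean of -1.01 (SE 0.43, limma's adjusted p = 0.345).

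**Figure D3:**
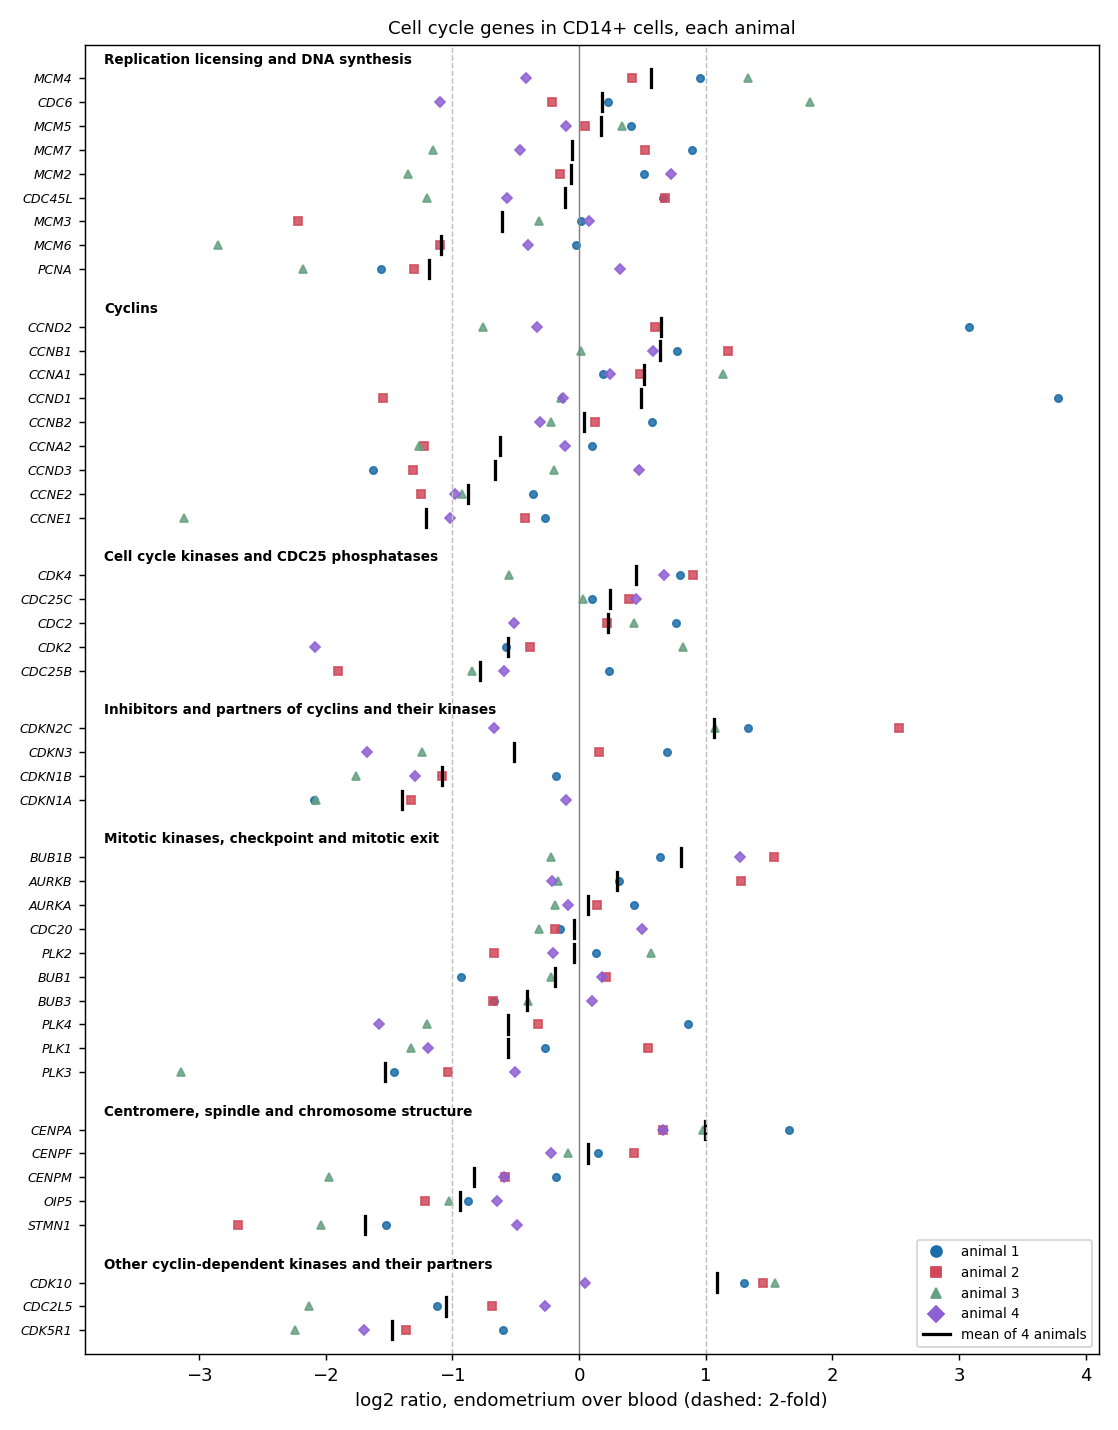
Log2 ratio of endometrium over blood in each of 4 animals (points) and their mean (bar) for the 45 members named by the rule, in groups by role, with dashed lines at a 2-fold difference. Most genes have points on both sides of 0, and CCND1, CCND2, CCNE1 and PLK3 are among those with 1 animal past 3 in size.

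Of 13 tested cyclin-dependent kinases outside the cell cycle and their partners, 1 was higher and 2 were lower at the unadjusted threshold. Of all probes tested, 5.27% were higher and 5.11% lower, and the group was not tested against these shares. CDK5R1, the activator of CDK5 best known from neurons, had levels of 7.13, 8.96, 8.50 and 8.89 in blood and 6.52, 7.60, 6.26 and 7.20 in endometrium. Blood was higher in each animal, with the blood level of animal 1 within the endometrial range. Its mean ratio of -1.48 (SE 0.32, n = 4), or 2.78-fold lower, had the lowest unadjusted p of the members, 0.00481, with an adjusted p of 0.262 by limma. CDK5R1 was past the unadjusted threshold in all 16 other fits, which draw on the same animals. With the 8 arrays, a dye term and the animal as a random block it was called, at -1.47 and an adjusted limma p of 0.0319. That fit takes technical replicates as separate values. Over all probes it called 455 higher and 337 lower, beside 11 and 0 in the fit reported. CDC2L5, now CDK13, a kinase of transcription and splicing, had levels of 9.84, 10.26, 10.62 and 10.79 in blood and 8.72, 9.57, 8.49 and 10.52 in endometrium. It was lower in the endometrium of each animal. At a mean ratio of -1.05 (SE 0.36), limma's unadjusted p was 0.0285 and its adjusted p was 0.284. CDC2L5's other probe had a mean ratio of -0.78, and with the mean of both probes the gene no longer passed the threshold.

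CDK10, a kinase linked to transcription factors and to control of cilia, had levels of 11.67, 11.72, 10.57 and 12.17 in blood and 12.97, 13.17, 12.12 and 12.21 in endometrium. It was higher in the endometrium of animals 1, 2 and 3 by 1.30, 1.45 and 1.55 and of animal 4 by 0.046, and the endometrial level of animal 3 lay below the blood level of animal 4. The mean ratio was 1.09 (SE 0.33, n = 4), or 2.12-fold, with an unadjusted p of 0.0185 and an adjusted p of 0.270 by limma. CDK10 was not past the threshold in the authors' table, in the analysis of variance of the methods or without animal 1, 2 or 3, among other fits. CDK8, a kinase of the Mediator complex, had a mean of 0.64, and CDK11 had a ratio of -2.58 in animal 3 with a mean of -0.66. Of the 15 genes in this group 13 were tested, and 8 had a mean ratio above 0.

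Genes that share a prefix without a settled part in division made up the rest. Of 12 such genes 11 were tested, 5 with a mean ratio above 0 and none past the unadjusted threshold. CDCA7, a target of MYC and E2F factors, had ratios of 2.25, 0.26, 1.86 and -0.26 and a mean of 1.03 (SE 0.49). CDCP1, a membrane protein of epithelial cells, was 3.13 higher in the endometrium of animal 3 and within 0.29 of blood in the others. The endometrium of animal 3 also had the highest sum of epithelial markers, 59215, beside 4382 to 8671 in the others, and their part in this value was not tested. CDC91L1, now PIGU, an enzyme of membrane anchor synthesis, was higher in the endometrium of every animal with a mean of 0.67 (SE 0.28). CDC37L1 and CDC40, a chaperone partner and a splicing factor, were lower in every animal, with means of -0.75 (SE 0.29) and -0.97 (SE 0.44).

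The median ratio of each group of members differed in sign between animals. The median ratio over the 95 members was 0.15, 0.06, -0.21 and -0.20 in animals 1 to 4, beside -0.09, -0.03, -0.02 and -0.03 over all probes tested. For the 11 genes of replication licensing and DNA synthesis the medians were 0.51, 0.05, -1.16 and -0.20, and for the 7 inhibitors and partners they were -0.18, 0.16, -1.24 and -0.59. Animal 3 had the lowest median in both groups. For mitotic kinases and checkpoint proteins all 4 medians lay between -0.17 and 0.14. The SD of the ratio over animals had a median of 0.76 among the members and of 0.68 among all probes, and it was 1.07 in the licensing group and 0.61 in the mitotic kinase group.

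**Figure D4:**
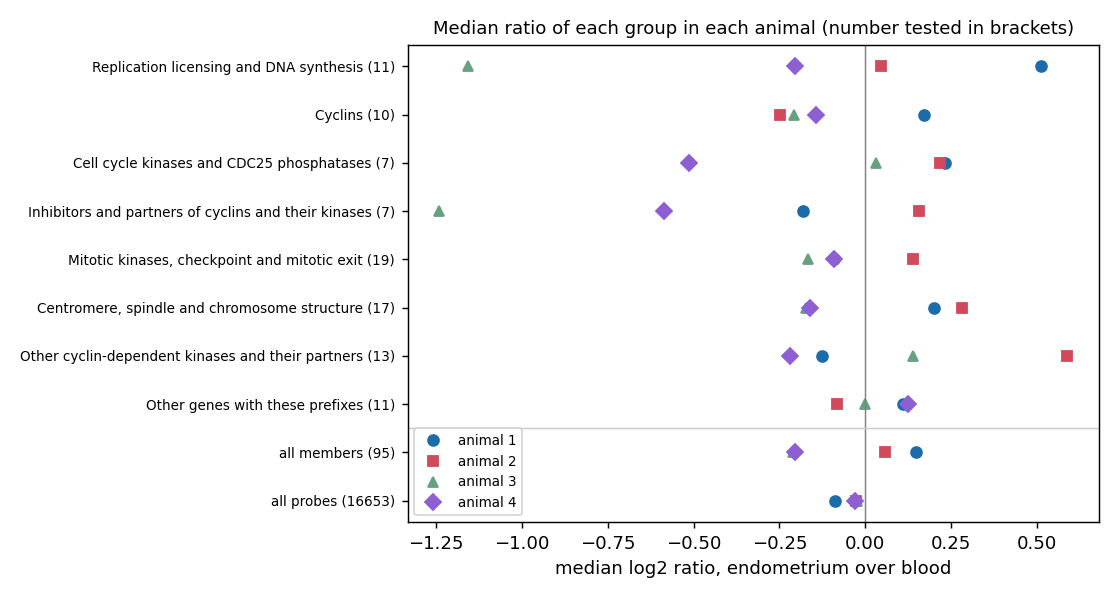
Median log2 ratio of endometrium over blood over the tested genes of each group in each of 4 animals, with the number of genes in brackets, and the same over all members and over all probes tested. The medians of the licensing group run from -1.16 in animal 3 to 0.51 in animal 1, while those of the mitotic kinase group stay between -0.17 and 0.14.

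A further 15 probes carried such a symbol only in the systematic name and were not counted as members. TOP2A, the topoisomerase that untangles DNA in dividing cells, was among them. It had levels of 6.48, 8.57, 6.98 and 6.81 in blood and of 8.21, 9.10, 8.19 and 7.84 in endometrium. TOP2A was higher in the endometrium of each animal, by 0.53 to 1.73, and the ranges overlapped only through the blood of animal 2. Its mean ratio was 1.13 (SE 0.27, n = 4), with an unadjusted p of 0.00719 and an adjusted p of 0.262 by limma. CDC27, a subunit of the complex that ends mitosis, was lower in each animal with a mean of -0.74 (SE 0.23). CDK6 and CDKN1C had means of 0.21 and 0.60. With these probes added, 2 genes were higher and 7 lower at the unadjusted threshold, and the median ratio was 0.06.

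Other genes of the same pathways were read from lists that hold no member. Over all probes tested, 47.4% had a mean ratio above 0, and the lists were not tested against this share. Of 32 genes of DNA synthesis tested, 12 had a mean ratio above 0 and 20 below, with a median of -0.12. GINS1 and RRM1, a part of the replication helicase and the large subunit of ribonucleotide reductase, were higher at the unadjusted threshold, with means of 1.17 (SE 0.39) and 1.06 (SE 0.41). CHAF1B, a chaperone that places histones on new DNA, was lower with -1.49 (SE 0.35). Of 28 genes of mitosis tested, 21 had a mean ratio above 0 and 7 below, with a median of 0.25, and only the checkpoint kinase TTK passed, with 1.12 (SE 0.37). In no channel were KIF11, ECT2, ESPL1 and KNTC1 well above background. Among 22 genes of quiescence and growth arrest, 8 had a mean above 0 and 14 below, with a median of -0.11. LIN37, a subunit of the complex that represses cell cycle genes in resting cells, was higher with 1.36 (SE 0.29). None of these genes was called at the adjusted p by limma. At the unadjusted threshold, 2 of the 32 genes of DNA synthesis were higher and 1 was lower. Of the 28 of mitosis and the 22 of quiescence, 1 each was higher and 0 were lower. Over all probes tested, 5.27% were higher and 5.11% lower.

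The authors' own normalization gave steeper ratios for dim members. In their table of log2 values, CCNA1 had a mean ratio of 3.42 and was called, with an adjusted p of 0.0483 by limma, although no blood channel of this probe was well above background. CCNE1 had -3.28 there, CDKN1B -2.43, CDK5R1 -2.45 and STMN1 -2.46, none of them called. The median over all probes was -0.14 in that table, a shift of -0.12 that these ratios include. A distance of more than 1 on the log2 scale between both normalizations was found for 7 members, and none of the 7 was well above background in all 16 channels. For the 63 members that were, the distance was at most 0.904. PCNA, CDKN1A and PLK3 had ratios of -1.37, -1.43 and -1.64 in the authors' table.

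**Figure D5:**
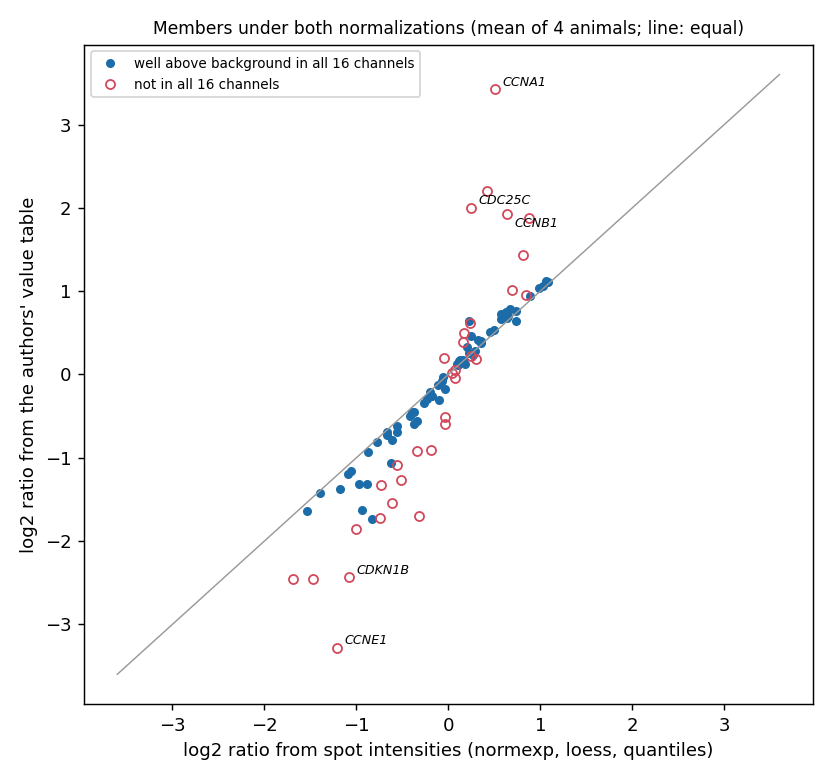
Mean log2 ratio of each of the 95 members from spot intensities (horizontal axis) and from the authors' value table (vertical axis), with filled points for the 63 members well above background in all 16 channels and open points for the other 32. Open points lie farthest from the line of equal values, among them CCNA1 at 0.51 and 3.42 and CCNE1 at -1.21 and -3.28.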

How the data were processed

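The authors deposited scanner files of 8 Agilent bovine arrays with 2 colours, which hold the intensity of each spot and of its local background, and a table of their log2 values after lowess and quantile normalization. The labels name Feature Extraction 9.5 and the files carry 10.5.1.1. Within 0.001, each table column equaled its dye in the scanner file of that animal's opposite technical replicate at 100% of the probes (0.303% to 0.689% for its own file), and the files were read that way. Read as attached, the tissues would change places in animals 1, 2 and 4. As read, the ratios of these animals correlated across probes with those of animal 3, whose dyes were not swapped, with r of 0.369, 0.449 and 0.359.

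Median spot intensities were corrected with normexp (offset 50), normalized by loess in each array, then by quantiles across the 16 channels, with limma 3.58.1 in R 4.3.3, without control and outlier spots, and averaged over the spots of a probe. No spot was saturated. Between 63.1% and 81.5% of the probes of a channel were well above background. limma's lmFit and eBayes tested the ratio of each animal, the mean of its 2 arrays, against 0, with Benjamini-Hochberg adjustment over 16653 probes, and were tested on simulated data. Same-numbered samples are the tissues of 1 animal, which is the pairing. The deviations of paired tissues from their tissue means correlated with r of 0.618, 0.364, 0.209 and 0.465. Both tissues of an animal were on the same arrays, so shared array effects can also give such values, and they do not test the pairing. Members, lists and roles were chosen with earlier results of these data known. The genes named are listed regulators of each step and the members past either threshold, and others were named after their values were seen. Of the 107 probes, 30 matched RefSeq by accession, 69 by gene identifier, 3 by name and 5 not at all. Alternatives changed the background correction, values, normalization, filter, block, dye and slide, animals, test, threshold and choice of probe. Promoter and protein sequences were not used here.
Some results for single members are not reported here.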

Additional observations from a re-analysis of the deposited data

Results flagged for a closer look

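In groups of 4 animals, 135 sets of values of the 45 genes named by the rule were searched for an animal far from the other 3, and chance gives such a flag in about 1 of 20 sets. The search found 7. The level of CCND2 in blood was 8.62 in animal 1 and 12.17 to 12.52 in the others. CCND3 had an endometrial level of 10.58 in animal 1, with 12.33 to 12.44 in the others. For CDC45L, the endometrial level was 8.92 in animal 3 and 10.56 to 10.89 elsewhere. CDK10 had a ratio of 0.046 in animal 4, with 1.30 to 1.55 in the other animals, and CDK4 had one of -0.55 in animal 3, with 0.67 to 0.90 in the others. CCNA1 had a blood level of 6.02 in animal 3, with 6.08 to 6.09 elsewhere, and CDC25C one of 6.11 in animal 1, and the lowest, 5.99, in animal 3, and neither probe was well above background in any blood channel.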

How the results depend on the processing

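No member was called in 13 of the 16 other fits. The processed signal and the value table each called 1, CCNA1. The 8 arrays with a dye term and random block, a fit that takes technical replicates as separate values, called 1, CDK5R1. The unadjusted threshold gave 8 members and 1729 probes. Probes called over all went from 11 to 188 with plain background subtraction, to 224 with the processed signal and with the value table, to 792 with the dye term and random block, to 44 with the filter on 8 of 8 channels, to 20 and 5 on the slides of technical replicates 1 and 2, to 5 without quantiles and without a filter, and to 0 in the analysis of variance of the methods (limma's own unadjusted count is 1729) and without any 1 animal. Higher and lower calls were 11 and 0 in the fit reported, 178 and 10 with subtraction, 204 and 20 with the value table and with the processed signal, and 455 and 337 with the dye term. Members higher at the unadjusted threshold were 4 with subtraction, the processed signal and the value table, 2 without quantiles, with the dye term, on slide 2 and with the 15 added probes, 0 in the analysis of variance, and 0 to 9 without 1 animal. Members lower were 14 with subtraction, 11 with the processed signal and the value table, 4 without quantiles, 3 in the analysis of variance and 2 to 8 without 1 animal. For the other fits the shares of all probes past the unadjusted threshold were not counted, so these counts of members have no such share beside them. Without the replicate block, 4 probes were called over all, no member was, and 4 members were lower and 1 higher at the unadjusted threshold, so that the pairing moved the count of members lower. The median of the members stayed between -0.10 and 0.06 throughout. The value table moved the median of all probes by -0.12.

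Ratios changed sign in 13 genes of the 45, among them CCND1 and CCND2 with mean ratios of 0.49 and 0.65, and the causes were not tested. CCNB2 had -0.048 with subtraction, CENPF -0.042 with the processed signal and the value table, CDC20 0.028, MCM2 0.045 and MCM7 0.038 without quantiles, and PLK2 0.17 with subtraction, 0.20 with the processed signal and the value table and 0.013 on slide 1. Without 1 animal, ratios ran from -0.045 to 0.16 for AURKA, -0.023 to 0.47 for AURKB, -0.32 to 0.058 for BUB1, -0.14 to 0.16 for CCNB2, -0.60 to 1.17 for CCND1, -0.16 to 1.12 for CCND2, -0.22 to 0.052 for CDC20, -0.37 to 0.26 for CDC45L, -0.36 to 0.61 for CDC6, -0.052 to 0.17 for CENPF, -0.33 to 0.36 for MCM2, -0.37 to 0.31 for MCM7 and -0.25 to 0.17 for PLK2. Signals were not well above background in every channel for CCNA1, CCNB1, CCNE1, CDC25C, CENPF and the Aurora kinases, among others.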

Other observations

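Probes of the same gene did not always give like values. MCM3AP, a gene next to replication factors by name whose product acts in RNA export, had 4 tested probes, with mean ratios of -0.20 for the brightest and -0.46, -0.16 and 0.13 for the others. For CDK2, the member probe had ratios of -0.58, -0.39, 0.82 and -2.09, and a brighter probe with the symbol only in its systematic name had -0.02, 0.67, -1.19 and -0.47. In animals 2 and 3 these probes of CDK2 had opposite signs. The second probe of CDC6 was not tested, since it was well above background in 1 of 16 channels.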
